A study of Danio rerio with 6 samples.

Results

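The neuron and synapse genes described here are a list of 45 symbols for proteins of neuronal identity, axons, synaptic vesicles and neurotransmitters. The list was chosen with earlier results of these data known. Its symbols were matched to the gene names of the deposited annotation, and the matched identifiers were read from the raw counts. Of the 45, vamp1a, vamp1b and cplx2a had no entry under those names and syt1b had no row in the count table. The remaining 41 of 22350 genes were analysed, and all 41 passed the filter on low counts that left 19562 genes for testing.

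Neurons release transmitter when calcium entry lets SNARE proteins of the vesicle and plasma membranes drive these membranes to fuse. The transmitter a spinal neuron uses is set by the enzymes and vesicular transporters it makes. In the zebrafish, which regrows axons and forms new neurons after spinal cord injury, such genes report how much neuronal RNA a piece of tissue holds and of which kinds. Axonal proteins such as Gap43 and the stathmin Stmn2 are linked to axon growth.

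RNA came from trunk tissue of wild-type (AB) larvae whose spinal cord had been cut through near the anal pore on day 5 after fertilization. After 6 h of recovery, 3 samples were kept in 35 µM IWR-1, a small molecule that blocks Wnt/β-catenin signalling by stabilising Axin, in 0.25% DMSO, and 3 samples in 0.25% DMSO alone. Tissue of about 1 mm around the injury was pooled from 20 animals a sample at 3 days post injury, 8 days post fertilization. No uninjured samples were analysed here, so the 1 comparison is IWR-1 against DMSO in injured larvae. Replicate numbers run from 1 to 3 in each group.

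Libraries held between 11014963 and 15219664 counts, and DMSO replicate 2 stood apart from the other DMSO libraries on the second principal component. Levels are given as CPM (each count scaled to the size of its library) after TMM normalisation, which corrects for library size and composition. The tissue was a mixture: 18 of 18 skeletal muscle markers were detected and summed to between 93545 and 99202 CPM with IWR-1 and between 88262 and 100123 CPM with DMSO. The 41 neuron and synapse genes together took between 0.113% and 0.120% of counts with IWR-1 and between 0.109% and 0.122% with DMSO. In such tissue, fewer neurons and less RNA per neuron cannot be told apart.

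None of the 41 neuron and synapse genes passed the edgeR test of IWR-1 against DMSO without the replicate number as a block. With edgeR's quasi-likelihood test at a Benjamini-Hochberg adjusted p below 0.05, 0 of 41 were called higher and 0 lower with IWR-1, where 7.47% of all tested genes were called (3.88% higher and 3.59% lower). Of the 41, 7 had an unadjusted p below 0.05 (17.1%, against 24.1% of all tested genes), 5 with a positive and 2 with a negative log2 fold change. DESeq2 called 0 of 41 (8.34% of all genes it tested). The authors' deposited table lists 0 with an adjusted p below 0.05 (8.34% of its genes), its smallest being 0.0542 for tubb5. Its adjusted p of the 41 genes are nearly the same as those of DESeq2 here, so it is not a separate result. limma voom with sample weights called 4 higher and 3 lower (17.1%, against 22.8% of all tested genes, 12.0% higher and 10.8% lower).

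What a replicate number stands for is not in the labels. In these same data the libraries of the same number deviated together, so the number was also used as a block. With it, 5 of the 41 were called higher, elavl3, sncga, sncb, gap43 and nefma, and 1 lower, tubb5. That is 14.6% of the list, against 17.8% of all tested genes with the block. By direction, 12.2% of the list was called higher and 2.44% lower, against 8.96% and 8.86% of all tested genes. The share called higher rests on 5 genes and was not tested against that of all genes. With limma voom 9.76% of the list was called higher and 7.32% lower, both below the 12.0% and 10.8% of all tested genes.

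The fold changes lay close to 0. The median log2 fold change of the 41 was 0.010, against -0.0060 over all tested genes, with 21 positive and 20 negative values. The lower and upper quartiles were -0.14 and 0.29, and the range ran from -0.44 (tubb5) to 0.75 (sncb). Changes of at least 1.5-fold by point value were seen for 3 of 41 (sncb, isl2b and mnx1, 7.32%), against 17.9% of all tested genes, and 0 reached 2-fold. The 95% interval of the log2 fold change lay within 2-fold either way for 35 of 41 and within 1.5-fold for 19 of 41, and for the others it reached beyond these limits. The median standard error was 0.17 for the list and 0.20 over all tested genes. Leaving out 1 library moved the log2 fold change by over 1.5 times, or past 0, for 36 of 41 genes. The exceptions were elavl3, isl2b, mnx1, rbfox3a and tubb5. A value near 0 meets this rule after a small move, and the share over all tested genes was not computed.

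**Figure D1:**
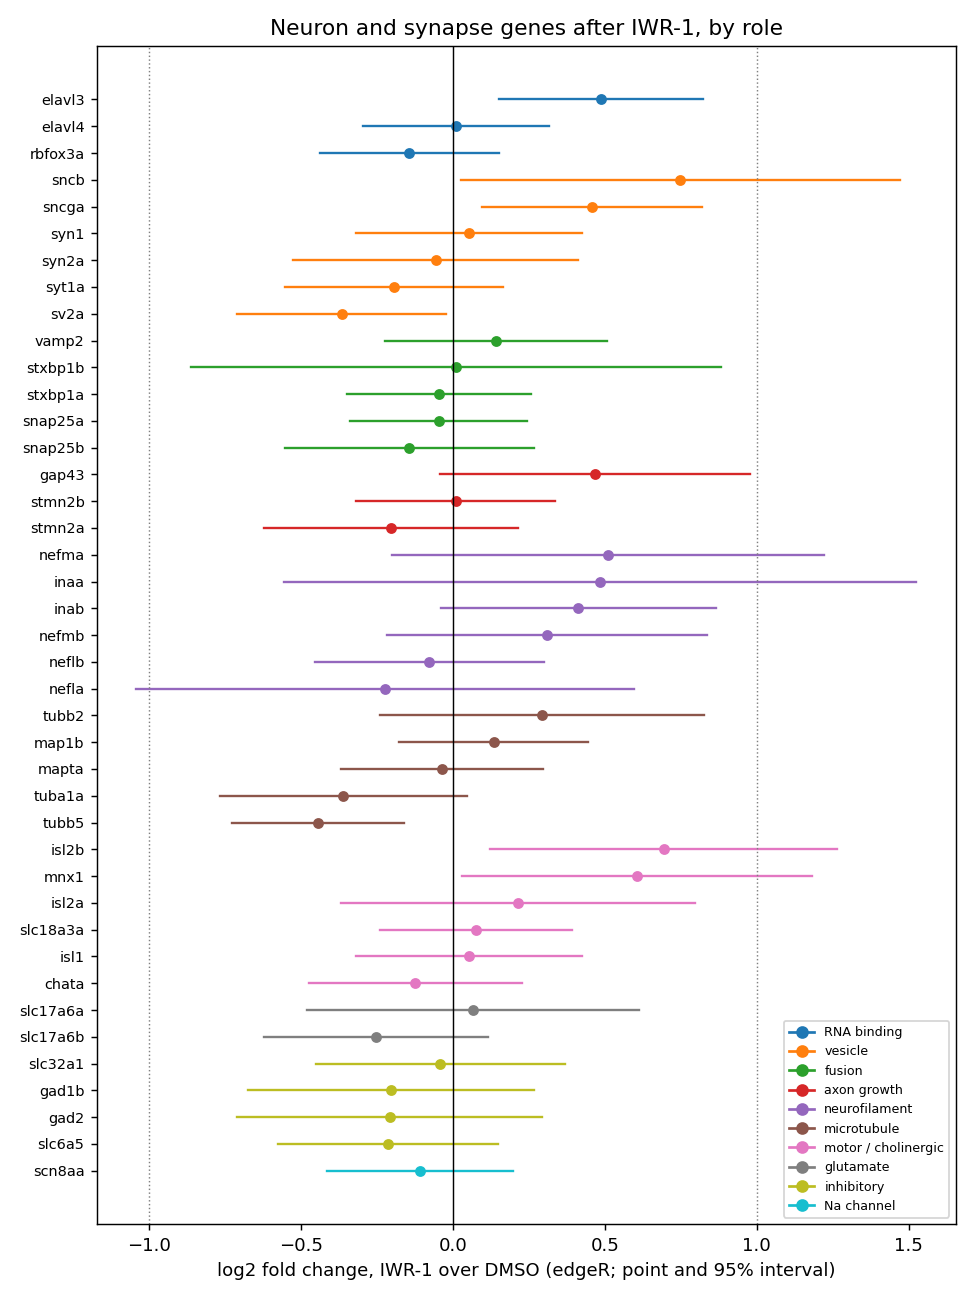
Log2 fold changes (IWR-1 over DMSO, horizontal axis) of the 41 neuron and synapse genes, grouped and coloured by role, with 95% intervals from the edgeR fit on 3 libraries a group; dotted lines mark 2-fold. Points run from -0.44 (tubb5) to 0.75 (sncb), and the intervals of 7 genes leave out 0.

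Levels of both groups did not overlap for 5 of 41 genes (12.2%, against 29.8% of all tested genes, 14.2% higher and 15.6% lower): elavl3, sncga and isl2b were above, and tubb5 and slc17a6b below, in every IWR-1 library. Within the 3 pairs of like-numbered libraries, 11 genes were higher and 4 lower with IWR-1 in all 3 pairs (36.6% together, against 52.1% of all tested genes, 25.7% higher and 26.5% lower). With both directions counted, the share of neuron and synapse genes was below that of the whole table under each of these rules. By direction this did not hold throughout. The 11 of 41 genes higher in all 3 pairs are a share slightly above the 25.7% of all tested genes, and the 4 of 41 lower are a share below the 26.5%. These comparisons are a description with no test.

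**Figure D2:**
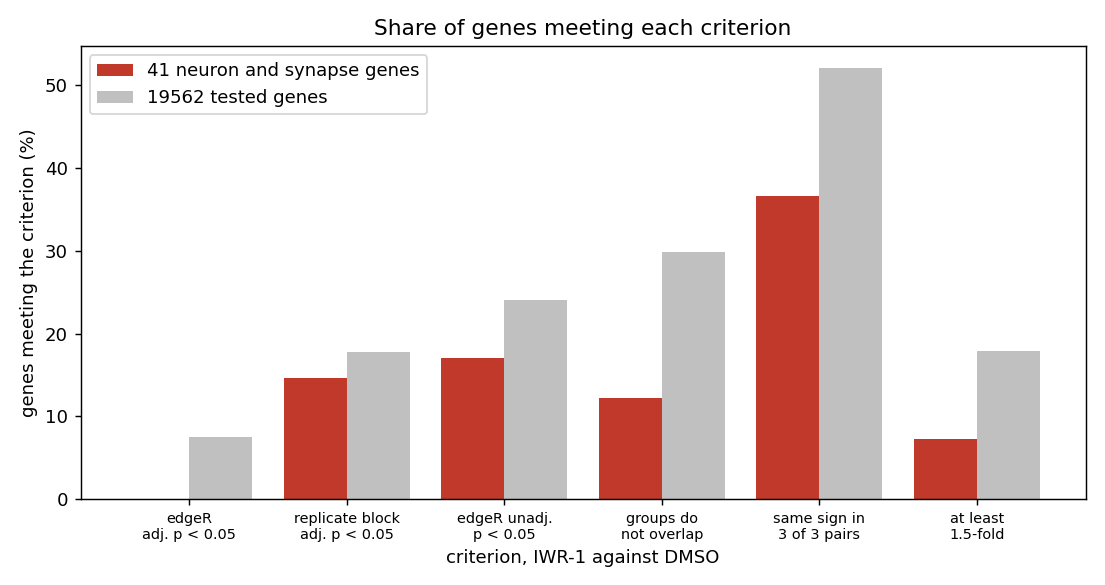
Percent of genes meeting each of 6 criteria (vertical axis), for the 41 neuron and synapse genes (red) and all 19562 tested genes (grey). The red bar is the lower one for all 6 criteria, from 0% against 7.47% by the edgeR adjusted p to 36.6% against 52.1% for the same sign in 3 of 3 pairs.

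Among the neuronal RNA-binding protein genes, elavl3 (HuC, a marker of early and mature neurons; chromosome 3, 46800190 to 46818001, minus strand, GRCz11) had 105, 82.0 and 98.6 CPM in IWR-1 replicates 1, 2 and 3, against 77.8, 60.0 and 66.3 CPM in DMSO replicates 1, 2 and 3. All IWR-1 libraries lay above all DMSO libraries. The means were 95.3 ± 12.0 CPM with IWR-1 and 68.0 ± 9.04 CPM with DMSO (SD, n = 3 each), with a log2 fold change of 0.49 ± 0.15 SE and an edgeR adjusted p of 0.0806. With the block the log2 fold change was 0.49 ± 0.12 and the adjusted p 0.0113. For elavl3 limma voom gave 0.33 ± 0.12, which did not pass (adjusted p = 0.0626). Its relative elavl4 (HuD), also made by most neurons, had 99.3, 89.6 and 103 CPM with IWR-1, against 104, 101 and 84.1 CPM with DMSO. Those groups overlapped, with a log2 fold change of 0.011 ± 0.14 (95% interval -0.29 to 0.32, edgeR adjusted p = 0.972). rbfox3a, the counterpart of the mammalian neuron marker NeuN, was at -0.14 ± 0.13. The difference between elavl3 and elavl4 was not tested.

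Of the 6 analysed genes for synaptic vesicle proteins, both synucleins, small proteins that bind vesicle membranes, had positive fold changes. sncga, gamma-synuclein (chromosome 13, 22659153 to 22673166, plus strand), had 199, 154 and 132 CPM in IWR-1 replicates 1, 2 and 3, against 112, 122 and 119 CPM in DMSO replicates 1, 2 and 3. IWR-1 replicate 1 was the highest library, and the lowest IWR-1 library lay just above the highest DMSO library. This gave a log2 fold change of 0.46 ± 0.16 (edgeR adjusted p = 0.120), and 0.44 ± 0.14 with the block (adjusted p = 0.0412). limma voom gave an adjusted p of 0.0370, and without IWR-1 replicate 1 the log2 fold change was 0.28 at an edgeR adjusted p of 0.325.

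sncb, beta-synuclein (chromosome 14, 50770537 to 50804016, plus strand), had 3.87, 3.22 and 5.31 CPM with IWR-1, against 2.24, 1.41 and 3.56 CPM with DMSO. The groups overlapped because DMSO replicate 3 was above IWR-1 replicate 2. Its log2 fold change was 0.75 ± 0.33 (edgeR adjusted p = 0.193), 0.80 ± 0.25 with the block (adjusted p = 0.0329) and 1.16 without DMSO replicate 3 (adjusted p = 0.0488), where 5.22% of all tested genes were called higher. limma voom gave an adjusted p of 0.0373. sv2a, a vesicle glycoprotein that aids release, stood the other way, with 31.7, 34.3 and 28.9 CPM with IWR-1, against 40.9, 47.5 and 34.1 CPM with DMSO. IWR-1 replicate 2 was just above DMSO replicate 3, so the groups overlapped. Its log2 fold change was -0.37 ± 0.16 (edgeR adjusted p = 0.182, 0.0677 with the block and 0.0434 with limma voom). The calcium sensor gene syt1a was at -0.19 and the synapsin genes syn1 and syn2a, whose products tether vesicles, at 0.053 and -0.057.

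The 5 analysed genes of the fusion machinery lay between -0.14 and 0.14 on the log2 scale. snap25a, which encodes a plasma membrane SNARE protein, had 66.8, 67.7 and 77.2 CPM with IWR-1, against 77.1, 74.6 and 67.2 CPM with DMSO. The groups overlapped almost fully, with a log2 fold change of -0.047 ± 0.13 (95% interval -0.34 to 0.24, edgeR adjusted p = 0.860). vamp2, the SNARE of the vesicle, had 9.97, 9.43 and 10.9 CPM with IWR-1, against 10.1, 8.67 and 8.71 CPM with DMSO. Its log2 fold change was 0.14 ± 0.17 (edgeR adjusted p = 0.633). snap25b was at -0.14, and stxbp1a and stxbp1b, genes for the syntaxin-binding protein Munc18-1, at -0.046 and 0.011. This was the role with the narrowest range of fold changes among those with at least 5 genes.

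Of the 3 axon growth genes, gap43, a growth cone protein gene (chromosome 15, 47161917 to 47176151, plus strand), had 17.0, 15.6 and 19.0 CPM in IWR-1 replicates 1, 2 and 3, against 13.1, 7.91 and 16.1 CPM in DMSO replicates 1, 2 and 3. DMSO replicate 2 was far below the other libraries, and DMSO replicate 3 was within the range of the IWR-1 libraries. gap43 had a log2 fold change of 0.47 ± 0.23 (edgeR adjusted p = 0.246) and 0.51 ± 0.17 with the block (adjusted p = 0.0488). Without DMSO replicate 2 it was 0.24 at an edgeR adjusted p of 0.444. On all libraries limma voom gave 0.41, which did not pass (adjusted p = 0.0733). The stathmin genes, whose products act on growing microtubules, lay near or below 0. stmn2a had 25.0, 33.7 and 32.8 CPM with IWR-1, against 31.9, 44.6 and 29.0 CPM with DMSO, and its highest level was in DMSO replicate 2. The log2 fold changes were -0.20 ± 0.19 for stmn2a (edgeR adjusted p = 0.548) and 0.010 ± 0.15 for stmn2b.

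Neurofilament genes encode the intermediate filaments that set axon calibre. nefma (chromosome 21, 19013850 to 19018455, minus strand), a medium chain, had 15.5, 12.9 and 18.8 CPM in IWR-1 replicates 1, 2 and 3, against 10.8, 5.27 and 16.7 CPM in DMSO replicates 1, 2 and 3. DMSO replicate 2 was again the lowest library, and DMSO replicate 3 lay inside the IWR-1 range. Between the groups the log2 fold change was 0.51 ± 0.32 (edgeR adjusted p = 0.363) and 0.60 ± 0.19 with the block (adjusted p = 0.0382). Without DMSO replicate 2 it was 0.20 at an edgeR adjusted p of 0.654, and without DMSO replicate 3 it was 0.96 at 0.0530. On all libraries limma voom gave 0.52, which did not pass (adjusted p = 0.0917).

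nefmb, the other medium chain gene, had 17.2, 18.8 and 26.9 CPM with IWR-1, against 17.0, 11.7 and 21.8 CPM with DMSO (log2 fold change 0.31 ± 0.24, edgeR adjusted p = 0.459). Its value was 0.092 without IWR-1 replicate 3, 0.12 without DMSO replicate 2 and 0.54 without DMSO replicate 3. inab, an internexin gene, had 19.7, 18.3 and 24.1 CPM with IWR-1, against 16.2, 11.2 and 19.0 CPM with DMSO (log2 fold change 0.41 ± 0.21, edgeR adjusted p = 0.247), and 0.24 without DMSO replicate 2. nefma, nefmb and inab were lowest in DMSO replicate 2 and highest in IWR-1 replicate 3. The light chain genes neflb and nefla were at -0.078 and -0.22. inaa, at a mean of 0.761 CPM, had a log2 fold change of 0.49 with a wide 95% interval of -0.56 to 1.53. Without 1 library it ran from 0.10 to 0.81, and limma voom, which called it, gave 1.36 (adjusted p = 0.0363). The annotation places nefma close to nefla on chromosome 21 and nefmb close to neflb on chromosome 8, and these neighbours had log2 fold changes of 0.51 and -0.22, and of 0.31 and -0.078. An rpl17 annotation overlaps nefma on the opposite strand and nefla on the same strand, and the strand setting of the counting is not given in the sources used here.

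**Figure D3:**
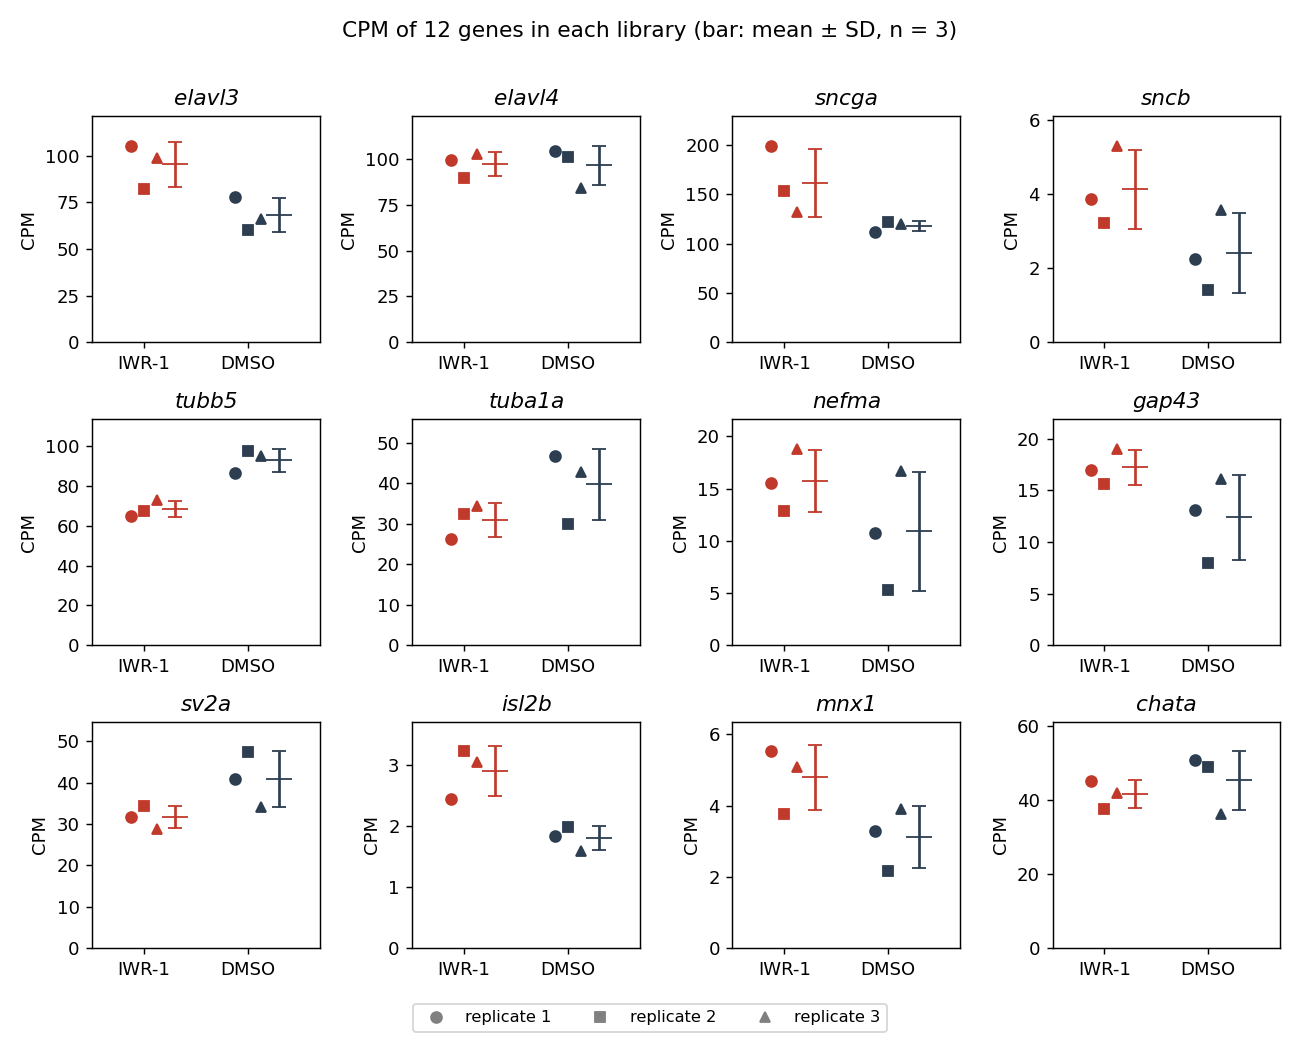
CPM (vertical axes, from 0) of 12 genes in the 3 IWR-1 (red, left) and 3 DMSO libraries (dark, right), with marker shapes for replicate numbers and bars for the mean ± SD. The groups are apart for elavl3, sncga, tubb5 and isl2b, while nefma, gap43, sncb and mnx1 share a low value in DMSO replicate 2.

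Of the 5 microtubule genes, tubb5, a beta-tubulin gene (chromosome 16, 10318893 to 10327620, plus strand), had the smallest p of the whole list by edgeR without the block. It had 64.6, 67.6 and 72.8 CPM in IWR-1 replicates 1, 2 and 3, against 86.4, 97.5 and 95.0 CPM in DMSO replicates 1, 2 and 3, so every IWR-1 library was below every DMSO library. The means were 68.3 ± 4.17 CPM with IWR-1 and 93.0 ± 5.79 CPM with DMSO (SD, n = 3 each). The log2 fold change was -0.44 ± 0.13 (edgeR adjusted p = 0.0625), and -0.44 ± 0.12 with the block (adjusted p = 0.0196). limma voom gave 0.0233. The alpha-tubulin gene tuba1a had 26.3, 32.3 and 34.5 CPM with IWR-1, against 46.7, 29.9 and 42.8 CPM with DMSO. Only DMSO replicate 2 lay within the IWR-1 range, and the log2 fold change was -0.36 ± 0.18 (edgeR adjusted p = 0.260 and 0.0214 with limma voom). Without DMSO replicate 2 it was -0.52 (adjusted p = 0.0422), where 3.84% of all tested genes were called lower. Another beta-tubulin gene, tubb2, was at 0.29, and the microtubule-associated genes map1b and mapta (tau) were at 0.13 and -0.037. Tubulins are also made outside neurons, and the cells from which these counts came were not resolved. The annotation holds a non-coding RNA over tubb5 on the same strand.

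Among the 6 motor neuron and cholinergic genes, none passed the edgeR test. The 4 homeobox genes (isl1, isl2a, isl2b and mnx1) and slc18a3a had positive values, and chata a negative one. The largest values were those of isl2b and mnx1. isl2b, a LIM homeobox gene of motor and primary sensory neurons, had 2.44, 3.22 and 3.04 CPM with IWR-1, against 1.84, 1.98 and 1.58 CPM with DMSO. The groups did not overlap. Its log2 fold change was 0.69 ± 0.26 (edgeR adjusted p = 0.133, 0.0937 with the block and 0.0319 with limma voom). mnx1, a homeobox gene of motor neurons, had 5.52, 3.77 and 5.10 CPM with IWR-1, against 3.28, 2.17 and 3.89 CPM with DMSO and overlapped through DMSO replicate 3 and IWR-1 replicate 2. Its log2 fold change was 0.61 ± 0.26 (edgeR adjusted p = 0.187, 0.0636 with the block). isl2a and isl1 were at 0.21 and 0.054, and reached -0.042 and -0.041 without 1 library.

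chata, which encodes the acetylcholine-making enzyme choline acetyltransferase, had 45.1, 37.6 and 41.9 CPM with IWR-1, against 50.7, 48.9 and 36.3 CPM with DMSO. DMSO replicates 1 and 2 were above, and DMSO replicate 3 below, all IWR-1 libraries. The log2 fold change was -0.12 ± 0.16 (95% interval -0.47 to 0.23, edgeR adjusted p = 0.673). slc18a3a, the vesicular acetylcholine transporter gene, lies close to chata on the same strand of chromosome 13 and was at 0.077 ± 0.14. Whether the fold changes of the homeobox genes and of these transmitter genes differ was not tested.

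Glutamate is loaded into vesicles of excitatory spinal neurons by the products of slc17a6a and slc17a6b. slc17a6b had 18.6, 18.7 and 19.5 CPM with IWR-1, against 20.5, 27.7 and 19.6 CPM with DMSO. All IWR-1 libraries were below all DMSO libraries, by a narrow margin except against DMSO replicate 2. The log2 fold change was -0.25 ± 0.17 (edgeR adjusted p = 0.383) and -0.078 without DMSO replicate 2, and slc17a6a was at 0.068. All 4 genes of inhibitory neurons had negative values that did not pass. Their median of -0.21 became -0.063 without DMSO replicate 1, -0.12 without DMSO replicate 2 and -0.35 without DMSO replicate 3. slc6a5, the glycine transporter gene of glycinergic neurons, had 41.4, 40.7 and 50.9 CPM with IWR-1, against 58.7, 54.3 and 41.4 CPM with DMSO. The groups overlapped through DMSO replicate 3, with a log2 fold change of -0.21 ± 0.16 (95% interval -0.58 to 0.15, edgeR adjusted p = 0.457; -0.35 to -0.11 without 1 library). The GABA-synthesis genes gad1b and gad2 were at -0.20 (-0.35 to -0.053 without 1 library) and -0.21 (-0.45 to -0.066), and slc32a1, the vesicular transporter gene for both inhibitory transmitters, at -0.041. The sodium channel gene scn8aa, active in axons, had 38.7, 36.5 and 37.5 CPM with IWR-1, against 43.5, 43.2 and 34.9 CPM with DMSO (log2 fold change -0.11 ± 0.14, edgeR adjusted p = 0.672).

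The DMSO libraries differed among themselves, and the counts that follow were made after the values were seen. DMSO replicates 1 and 2 were above every IWR-1 library, and DMSO replicate 3 was not, for 8 of 41 genes (chata, slc6a5, gad1b, gad2, sv2a, syt1a, rbfox3a and scn8aa). That is 19.5% of the list, against 8.30% of all tested genes. DMSO replicate 3 was itself the lowest of the 6 libraries for 11 of 41 (26.8%), against 13.7% of all tested genes. DMSO replicate 2 was the lowest for 11 of 41 as well (26.8%), near the 29.7% of all tested genes; gap43, nefma, nefmb and inab are among these 11. Mitochondrial RNA took between 9.22% and 12.7% of counts with IWR-1, and 7.08%, 6.32% and 10.4% in DMSO replicates 1, 2 and 3; its part in these patterns was not tested.

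**Figure D4:**
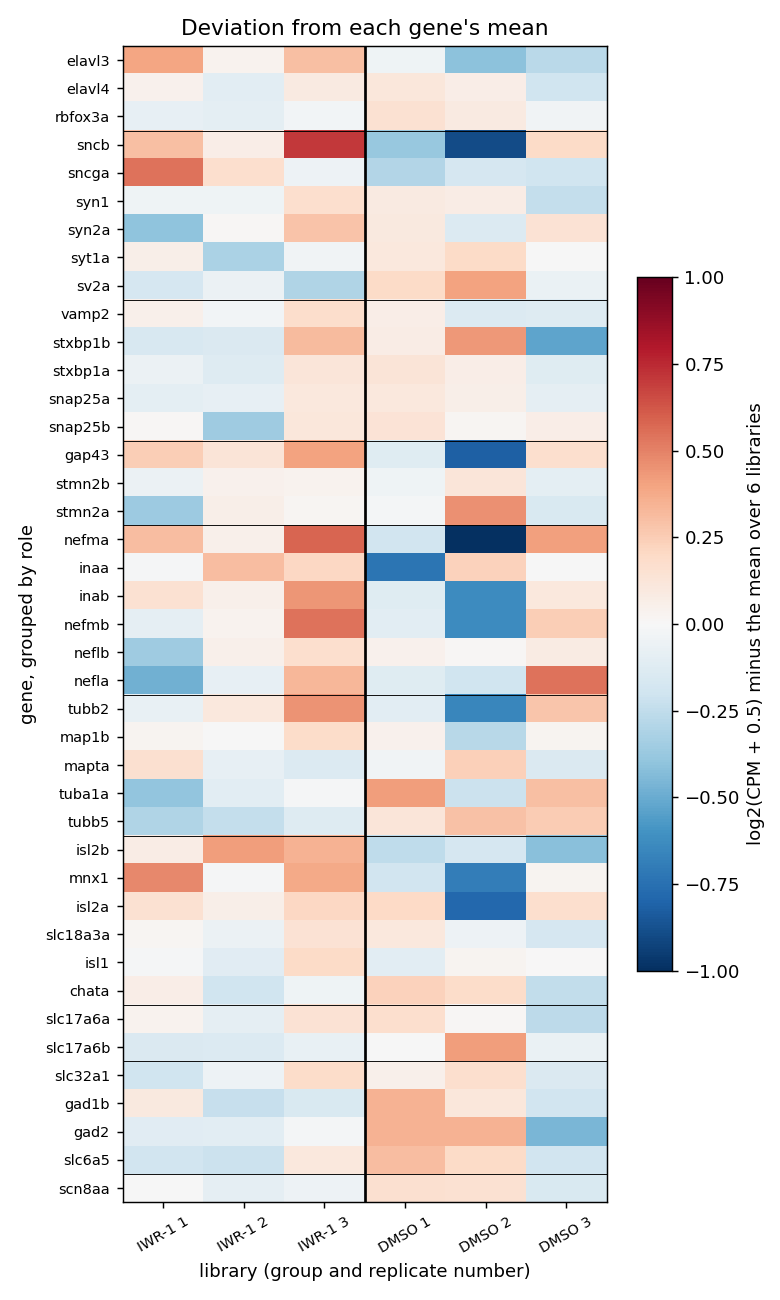
Deviation of log2(CPM + 0.5) from each gene's mean over the 6 libraries (colour) for the 41 genes (rows, by role), with IWR-1 libraries left of the line and DMSO libraries right of it. DMSO replicate 2 is low for the gap43, nefma, sncb and mnx1 rows, and DMSO replicate 3 is the lowest library in the chata, gad2 and scn8aa rows.

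Several of the genes are duplicate copies whose reads could be split between them. Summing both copies of the 8 pairs present left 0 of 33 features called. The summed pairs ran from -0.22 for slc17a6 (adjusted p = 0.440) to 0.42 for ina (adjusted p = 0.225, edgeR). The share of a pair's counts given to the a copy, not corrected for transcript length, was 90.4% ± 1.26 with IWR-1 and 89.7% ± 0.629 with DMSO for snap25, and 64.3% ± 2.93 with IWR-1 and 67.5% ± 3.16 with DMSO for stmn2 (SD, n = 3 each). For nefm it was 43.1% ± 3.72 with IWR-1 and 37.8% ± 6.21 with DMSO. None of these differences exceeded the larger of both groups' SDs.

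Other neuronal genes were taken from 5 further lists of 173 genes, of which 150 were in the count table and 142 were tested. With edgeR 0 of 142 rose and 3 fell (background 3.88% higher and 3.59% lower). An unadjusted p below 0.05 was found for 24 of them (16.9%, against 24.1% of all tested genes). Their median log2 fold change was 0.054 (-0.016 to 0.13 without 1 library). DESeq2 called 1 higher and 3 lower of 150, where it called 4.28% and 4.06% of all genes. The block called 7 higher and 6 lower (4.93% and 4.23%, against 8.96% and 8.86%), and limma voom 5 and 10 (3.52% and 7.04%, against 12.0% and 10.8%). Each of these shares, taken over the 5 lists together, was below that of the whole table. Among 36 other synapse genes, syngr1a, which encodes a synaptogyrin of the vesicle membrane, fell to 5.59, 5.42 and 6.23 CPM with IWR-1, against 10.7, 11.2 and 9.37 CPM with DMSO. Its groups did not overlap, and the log2 fold change was -0.85 ± 0.17 (edgeR adjusted p = 0.0149). Without IWR-1 replicate 2, IWR-1 replicate 3 or DMSO replicate 1 the adjusted p was 0.0811, 0.0673 and 0.0635. The log2 fold changes in these fits were -0.81, -0.91 and -0.83.

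Among 38 tested receptor and channel genes, glra4a, a glycine receptor subunit gene, fell to 4.88, 6.36 and 6.09 CPM with IWR-1, against 8.55, 11.2 and 11.5 CPM with DMSO. Again every IWR-1 library was below every DMSO library, with a log2 fold change of -0.85 ± 0.20 (edgeR adjusted p = 0.0251). Without IWR-1 replicate 1, 2 or 3 its adjusted p was 0.0813, 0.0740 and 0.107, at log2 fold changes of -0.74, -0.92 and -0.89. Of 13 tested genes of transmitter identity, slc6a2, the noradrenaline transporter gene of noradrenergic neurons, fell to 5.38, 5.42 and 3.61 CPM with IWR-1, against 11.1, 12.5 and 9.50 CPM with DMSO. The log2 fold change was -1.20 ± 0.21 (edgeR adjusted p = 0.00751), and the adjusted p stayed below 0.05 without any 1 library, at most 0.0492. That list had a median log2 fold change of -0.30 (-0.37 to -0.21 without 1 library). Of its 13 genes, 7 had an unadjusted p below 0.05 (53.8%, above the 24.1% of all tested genes), and 3 to 7 without 1 library. The block called 1 higher and 3 lower (7.69% and 23.1%, against 8.96% and 8.86% of all tested genes). With limma voom 1 was also called higher and 3 lower, against 12.0% and 10.8% of all tested genes. Of 44 genes of neuronal cytoskeleton and axons, and of 12 tested sensory neuron genes, which include isl2b, 0 were called by edgeR. In these lists 9 and 2 had an unadjusted p below 0.05 (20.5% and 16.7%, both below 24.1%). The block called 4 higher and 1 lower (9.09% and 2.27%) in the first, and 1 higher (8.33%) and 0 lower in the second.

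The summed level of the 41 neuron and synapse genes was 1190.3, 1106 and 1210.1 CPM with IWR-1, against 1185, 1149 and 1090.1 CPM with DMSO. The groups overlapped, with means of 1169 ± 55.5 CPM with IWR-1 and 1142 ± 48.1 CPM with DMSO (SD, n = 3 each). This sum leans on the genes with most counts, and opposite changes cancel within it. The microtubule genes alone did not overlap, at 205, 206 and 222 CPM with IWR-1, against 240, 230 and 244 CPM with DMSO. Of these genes only tubb5 was apart on its own, at 64.6 to 72.8 CPM with IWR-1, against 86.4 to 97.5 CPM with DMSO. The groups of tuba1a, tubb2, map1b and mapta overlapped, and tubb2 and map1b had positive fold changes. The sum without tubb5 was not tested. The summed levels of each other role overlapped. Markers of the glia that ensheath axons lay apart over the same libraries, but not they alone. Fibroblast markers summed to 18210 to 22277 CPM with IWR-1, against 26157 to 28120 CPM with DMSO. Epidermis markers summed to 3290 to 4889 CPM with IWR-1, against 5518 to 6791 CPM with DMSO. Neuroendocrine genes summed to 66.1 to 82.4 CPM with IWR-1, against 48.0 to 63.2 CPM with DMSO. The 16 myelinating glia markers in the table summed to 474, 485 and 597 CPM with IWR-1, against 331, 361 and 322 CPM with DMSO, and 4 of 15 tested rose (myrf, mag, mpz and cldnk). Without 1 library the count was 3 to 7, the 7 being without DMSO replicate 2, and with the block it was 7. Fits without 1 library called 1.31% to 5.22% of all tested genes higher. The 4 are 26.7% of those tested and the 7 with the block 46.7%, against 3.88% and 8.96% of all tested genes called higher.

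The 17 radial glia markers summed to 1887, 1827 and 1943 CPM with IWR-1, against 1827, 2117 and 1624 CPM with DMSO and overlapped. Of 15 tested, 2 fell, the glutamate transporter genes slc1a3a and slc1a3b, and 0 remained called without IWR-1 replicate 1, 2 or 3 or DMSO replicate 1. In those fits between 0.957% and 2.13% of all tested genes were called lower. The block called slc1a3a and slc1a3b lower. It also called 2 higher, the transcription factor genes sox9a (log2 fold change 0.46 ± 0.15, adjusted p = 0.0441) and sox9b (log2 fold change 0.63 ± 0.15, adjusted p = 0.00751). limma voom also gave 2 higher and 2 lower. Over all tested genes edgeR called 3.88% higher and 3.59% lower, the block 8.96% and 8.86%, and limma voom 12.0% and 10.8%. The 14 neural progenitor markers summed to 283, 308 and 302 CPM with IWR-1, against 279, 345 and 273 CPM with DMSO, and 1 of 13 tested, the proneural factor gene ascl1b, rose with a log2 fold change of 1.26 ± 0.21 (edgeR adjusted p = 0.00493). The 1 called is 7.69% of those tested, and with the block 2 progenitor markers rose (15.4%).

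Markers from outside the nervous system were read against the 3.88% of all tested genes called higher and the 3.59% called lower by edgeR. Of these markers, 5 of 14 fibroblast markers fell, 5 of 14 epidermis markers fell and 2 rose, 3 of 15 macrophage markers rose and 2 of 9 notochord markers fell. Of 18 skeletal muscle markers 0 were called, and 3 had an unadjusted p below 0.05. The block changed several of these counts. It called 3 muscle markers higher (myhz1.1, tnnt3a and tnnt3b), 7 macrophage markers higher, 8 fibroblast markers lower and 1 higher, and 3 notochord markers lower. Of the epidermis markers it called 7 lower and 2 higher. limma voom called 6 muscle and 10 macrophage markers higher, and 11 fibroblast and 5 notochord markers lower. Of the epidermis markers limma voom called 6 lower and 3 higher. Over all tested genes the block called 8.96% higher and 8.86% lower, and limma voom 12.0% and 10.8%. Leaving out IWR-1 replicate 2, IWR-1 replicate 3 or DMSO replicate 1 left 2 to 3 fallen fibroblast markers, 2 fallen and 0 risen epidermis markers, 1 risen macrophage marker and 1 fallen notochord marker. The fallen epidermis markers numbered 2 without IWR-1 replicate 1 and 3 without DMSO replicate 3. With DMSO replicate 3 left out, 2 muscle markers rose. The part of tissue composition in the values of the neuron and synapse genes was not tested.

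**Figure D5:**
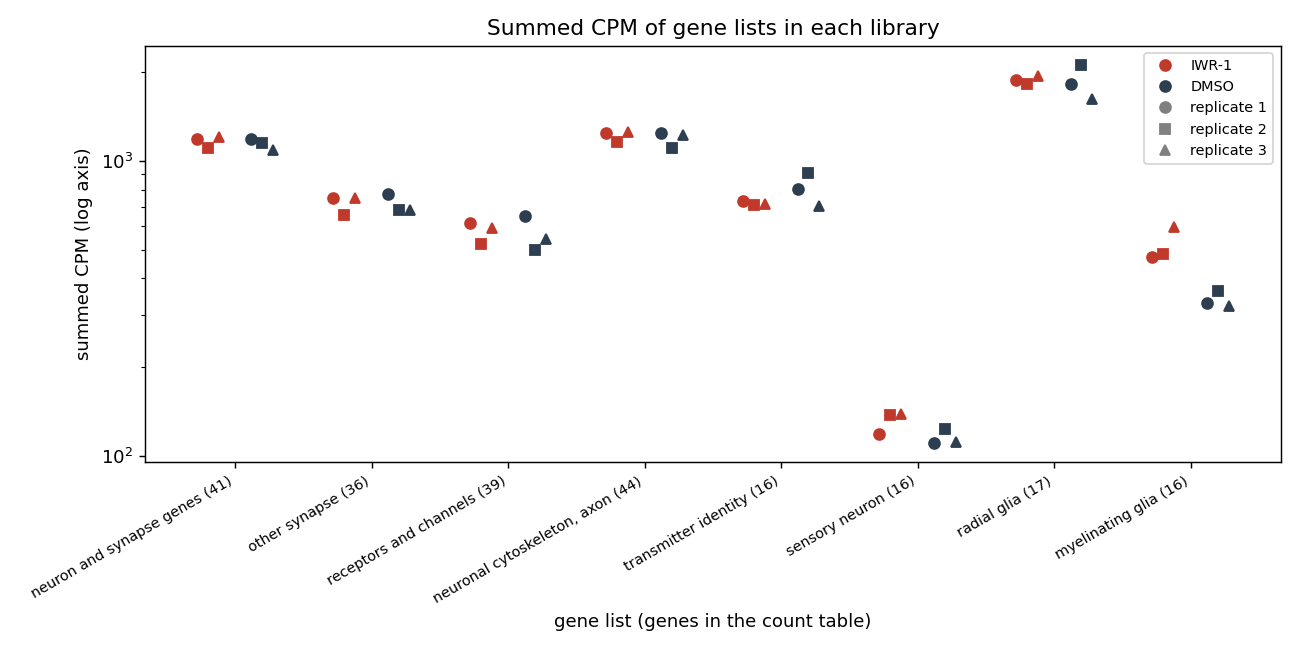
Summed CPM (vertical log axis) of the 41 neuron and synapse genes, 5 further neuron gene lists and 2 glia marker lists in each library, IWR-1 (red) left of DMSO (dark), with marker shapes for replicate numbers. The neuron and synapse genes overlap between groups at 1106 to 1210.1 CPM with IWR-1 and 1090.1 to 1185 CPM with DMSO, while the myelinating glia markers do not overlap.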

How the data were processed

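RNA of 6 samples depleted of ribosomal RNA was sequenced. Samples were grouped by their titles, and the deposited sample sheet links them to the columns of the table. Per the labels' protocols, a kit for fixed tissue was used for extraction and a directional kit for libraries. Per the submitters' processing notes the tools were featureCounts, STAR, cutadapt and FastQC and the build GRCz11; tool versions and the strand setting are not given in the sources. The authors deposited raw counts per gene, gene names with coordinates, and a comparison with log2 fold changes, p-values and a mean signal per gene that was not printed here. The labels call the samples biological replicates, each of pooled animals.

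The edgeR 4.0.16 quasi-likelihood test (R 4.3.3, robust, TMM factors) was run on the 19562 genes kept by filterByExpr, with Benjamini-Hochberg adjustment over all of them, and 2788 genes were too low. An adjusted p below 0.05 is a call. A standard error is the log2 fold change over the square root of F, and intervals are 95%. CPM are TMM-scaled, and 0.5 was added before taking logs for pairs and deviations. Library totals were 11014963 to 15219664 counts, with a common biological variation of 17.0%. CPM are not corrected for transcript length, so levels were not compared between genes, and ranks by mean CPM served only to choose whose values are shown. Libraries within a group differed beyond sampling noise (chi-square over its degrees of freedom at least 8.73). Deviations from the group means correlated at 0.325, 0.373 and 0.172 between libraries of the same number, all over 0.1, so the number was also fitted as a block. Between unlike numbers they correlated at -0.276 to 0.0690. The block was thus chosen from these same data, and no member was called by edgeR on all libraries without it. What a number stands for is not in the labels.

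The members, lists and rules were chosen with earlier results of these data known. Values in every library are given for genes called by edgeR or with the block, for those with an unadjusted p below 0.05, and in each role for the gene with the highest mean CPM and that with the smallest p. tuba1a, inaa and the named markers of other cells were chosen after their values were seen. Alternatives were the block, upper-quartile or RLE scaling, no filter or a CPM of at least 1 in 3 libraries, DESeq2 1.42.0, voom of limma 3.58.1 with sample weights, scaling without mitochondrial and the 10 genes with most counts, thinning to the smallest library, each library left out, summed paralogs, and an adjusted p below 0.1. The fit was tested on simulated counts.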

Additional observations from a re-analysis of the deposited data

How the results depend on the processing

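Of the 41 neuron and synapse genes, edgeR called 0 higher and 0 lower. The replicate block called 5 higher and 1 lower, and limma voom 4 higher (inaa, isl2b, sncb and sncga) and 3 lower (sv2a, tuba1a and tubb5). An adjusted p below 0.1 called 1 higher and 1 lower (2.44% each), against 6.29% and 6.24% of all tested genes. Without 1 library the counts were 0 to 1 higher (sncb, DMSO replicate 3 left out) and 0 to 1 lower (tuba1a, DMSO replicate 2 left out). The block changed no other call of these genes. The voom fit weighted DMSO replicates 1, 2 and 3 by 2.90, 0.317 and 0.656, so its DMSO values lean on replicate 1. The cause of each change was not tested. Scaling, filters, thinning, summed paralogs and DESeq2 kept both counts at 0.

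Over all tested genes the counts of 759 higher and 703 lower became 1753 and 1733 with the block, 2347 and 2105 with limma voom, and 1230 and 1220 at an adjusted p below 0.1. Without 1 library they were 258 to 1035 higher and 189 to 1082 lower. In the further neuron lists, 0 higher and 3 lower became 7 and 6 with the block and 5 and 10 with limma voom. They became 1 and 3 with DESeq2, and 3 and 4 at an adjusted p below 0.1. Without 1 library they were 0 to 2 higher and 1 to 6 lower.

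The median of the 41 log2 fold changes, 0.010, became -0.057 without DMSO replicate 3 and 0.067 when IWR-1 replicate 1 was left out. The pooled SD between replicates of the list's median deviation was 0.0904. It describes single libraries and not a fold change between groups, so these moves were not judged against it. Some values changed sign, none of them of a gene called under any setting: with limma voom elavl4 (-0.046), nefla (0.057), slc17a6a (-0.038) and slc32a1 (0.014), with DESeq2 stxbp1b (-0.0063), and with thinned counts elavl4 (-0.028), stmn2b (-0.047), isl1 (-0.048) and slc17a6a (-0.036). Without 1 library the values ran from -0.079 to 0.069 for elavl4, -0.053 to 0.11 for syn1, -0.24 to 0.12 for syn2a, -0.33 to 0.010 for stmn2a, -0.037 to 0.083 for stmn2b, -0.53 to 0.16 for nefla, -0.19 to 0.067 for neflb, -0.041 to 0.12 for isl1, -0.042 to 0.38 for isl2a, -0.072 to 0.19 for slc17a6a, -0.16 to 0.052 for slc32a1, -0.12 to 0.011 for stxbp1a, -0.31 to 0.35 for stxbp1b and -0.13 to 0.085 for mapta. The smallest standard error of a gene's log2 fold change was 0.13 and the largest 0.47 (inaa), which limits what 3 libraries a group can show.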

Other observations

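A list of neuroendocrine genes was kept to follow secretory cells of the gut. Genes of this list are also expressed by neurons, so it does not separate these cell types. It is not among the 5 further neuron lists, where edgeR called 0 of 142 higher. The neuroendocrine list held 1 called gene of 6 tested. This is 16.7%, against 3.88% of all tested genes called higher by edgeR. scg3, a granin gene of secretory granules that neurons also express, had 16.8, 13.7 and 20.0 CPM with IWR-1, against 8.23, 7.72 and 11.1 CPM with DMSO. The groups did not overlap, and the log2 fold change was 0.90 ± 0.20 (edgeR adjusted p = 0.0234). Without IWR-1 replicate 1, IWR-1 replicate 3 or DMSO replicate 1 the adjusted p was 0.0611, 0.138 and 0.102. The log2 fold changes in these fits were 0.90, 0.76 and 0.83. Another granin gene, scg2b, had 22.6, 18.1 and 23.3 CPM with IWR-1, against 12.6, 10.5 and 16.2 CPM with DMSO, with a log2 fold change of 0.70 ± 0.19 that did not pass (edgeR adjusted p = 0.0513). It was called with the block (adjusted p = 0.00374), with DESeq2 (0.0220) and with limma voom (0.00408). The list then held 2 called genes, as it also did with RLE scaling, with thinned counts and without DMSO replicate 3. With the block these are 33.3% of those tested, against 8.96% of all tested genes called higher. scg3 and scg2b were named after their values were seen. Of 6 tested hair cell genes, 0 were called by edgeR and 3 had an unadjusted p below 0.05 (50%, against 24.1% of all tested genes). DESeq2 called 0. The block called 0 higher and 2 lower (33.3%, against 8.86% of all tested genes). limma voom called 1 higher and 2 lower (16.7% and 33.3%, against 12.0% and 10.8%). The 8 hair cell genes in the table summed to 24.8, 17.3 and 20.4 CPM with IWR-1, against 22.8, 20.0 and 31.3 CPM with DMSO, and the groups overlapped.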
